A study of Mus musculus with 4 samples.

Results

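The 10 CXC chemokine genes Cxcl1, Cxcl2, Cxcl3, Cxcl5, Cxcl9, Cxcl10, Cxcl11, Cxcl12, Cxcl14 and Cxcl16 were followed in RNA-seq libraries of mouse MC38 tumours. They were taken by name from 54115 genes with an estimate, and all 10 were among the 18758 genes with enough reads to be tested. MC38 is a mouse colon adenocarcinoma cell line, and the tumours grew in mice after injection of these cells. Saline, the vehicle, was given to 1 group by the intraperitoneal route on 10 consecutive days, and vanoxerine, an inhibitor of the dopamine transporter, was given to the other by the same route and schedule at 25 mg/kg. Each group had 2 libraries. The sources used here do not give the strain, age and sex of the mice, the site of injection, or whether a group's libraries are from different animals. The p-values thus rest on library-to-library spread that may be technical.

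CXC chemokines are small secreted proteins, named for a residue between their first pair of cysteines, that guide leukocytes through G-protein-coupled receptors. Those with a Glu-Leu-Arg motif before the cysteines (Cxcl1, Cxcl2, Cxcl3 and Cxcl5) act on Cxcr2 and draw neutrophils, and their genes are classical targets of NF-kB. Cxcl9, Cxcl10 and Cxcl11 lack that motif, are induced by interferons and draw activated T cells and NK cells through Cxcr3. Cxcl12, the ligand of Cxcr4, is made mainly by stromal cells, Cxcl14 is made by epithelium and fibroblasts, and Cxcl16 is a membrane-anchored chemokine of macrophages and dendritic cells whose receptor is Cxcr6.

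The genes of the first and second class are clustered on chromosome 5, where RefSeq start sites allow their promoters to be compared (GRCm38.p6, forward strand for Cxcl1, Cxcl2 and Cxcl3, reverse strand for Cxcl9 and Cxcl10). The promoters of 5 members are shown. Cxcl1 and Cxcl2 are neighbours with a shared promoter word, and they changed in opposite directions in these tumours. Cxcl3 also holds the word but was not called. Cxcl9 and Cxcl10 lack the word and are neighbours that changed in opposite directions as well. Each sequence is read 5′ to 3′ on the gene's own strand and ends next to the gene's start in GENCODE M21 or RefSeq, whichever lies further upstream, and capitals mark every match to the motifs described after them. Cxcl1 is at chr5:90890995-90891240, Cxcl2 at chr5:90903649-90903870, Cxcl3 at chr5:90785851-90786100, Cxcl9 at chr5:92328080-92328329 and Cxcl10 at chr5:92348890-92349139.
Cxcl1: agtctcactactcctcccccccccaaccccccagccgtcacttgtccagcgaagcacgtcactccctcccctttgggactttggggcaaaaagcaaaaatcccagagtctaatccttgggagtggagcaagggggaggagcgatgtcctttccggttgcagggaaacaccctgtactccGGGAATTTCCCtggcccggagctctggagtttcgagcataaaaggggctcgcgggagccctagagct
Cxcl2: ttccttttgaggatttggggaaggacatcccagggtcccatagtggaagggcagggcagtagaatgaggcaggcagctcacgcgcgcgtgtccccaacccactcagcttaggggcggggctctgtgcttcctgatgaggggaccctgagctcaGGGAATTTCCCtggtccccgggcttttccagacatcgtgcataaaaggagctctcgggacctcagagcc
Cxcl3: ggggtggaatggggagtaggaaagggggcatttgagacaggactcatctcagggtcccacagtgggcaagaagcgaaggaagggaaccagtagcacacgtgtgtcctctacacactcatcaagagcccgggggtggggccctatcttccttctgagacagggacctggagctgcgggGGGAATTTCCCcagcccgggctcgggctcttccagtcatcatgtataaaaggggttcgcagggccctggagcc
Cxcl9: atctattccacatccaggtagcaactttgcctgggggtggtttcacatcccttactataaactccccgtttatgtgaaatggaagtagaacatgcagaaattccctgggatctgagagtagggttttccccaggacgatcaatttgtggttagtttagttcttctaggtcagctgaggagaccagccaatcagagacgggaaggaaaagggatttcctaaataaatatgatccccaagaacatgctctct
Cxcl10: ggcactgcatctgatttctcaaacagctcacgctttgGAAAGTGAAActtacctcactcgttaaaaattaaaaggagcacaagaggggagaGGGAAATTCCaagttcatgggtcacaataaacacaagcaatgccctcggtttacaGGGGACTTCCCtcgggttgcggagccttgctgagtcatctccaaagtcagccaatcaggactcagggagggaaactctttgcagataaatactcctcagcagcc

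The motifs were searched on both strands of the 250 bases before each RefSeq start. GGGAATTTCCC, the longest word that the promoters of Cxcl1, Cxcl2 and Cxcl3 share, lies at -71 to -61 in Cxcl1, at -97 to -87 in Cxcl2 and at -73 to -63 in Cxcl3, where -1 is the base before the RefSeq start. The sequences of Cxcl1 and Cxcl2 are printed without the last 4 and 28 bases before that start, which GENCODE M21 places inside the gene. The word is a form of the kB site that NF-kB binds, it overlaps the matches there to the NF-kB consensus (found in 7.25% of promoters), and it was found in 14 (0.0426%) of all 32851 promoters of that length. The word was picked from these promoters, so that share is a description. Cxcl10 held that consensus at -159 to -150 and in a run of overlapping matches from -104 to -94, and it held an interferon-stimulated response element, GAAA followed after any 2 bases by GAAA (2.98% of promoters), at -213 to -204. Neither these motifs nor the STAT site TTCNNNGAA (7.02% of promoters) matched in this window of Cxcl9. Of the 7 members with a promoter in the table, Cxcl14 had an interferon-stimulated response element match and a STAT site match, and Cxcl12 had no match. Cxcl5, Cxcl11 and Cxcl16 were not matched to an entry.

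Libraries held 67289273 to 75748162 estimated reads, and libraries of a group differed by more than sampling noise (mean chi-square per gene of 58.3 between saline and 17.3 between vanoxerine libraries, where 1 is noise alone). Of 18758 genes tested, edgeR called 21.0% higher and 15.9% lower in vanoxerine at an adjusted p under 0.05, or 36.9% in all, and the groups did not overlap in 70.7%. Of these calls 56.9% were higher, against 39.0% with upper-quartile scaling and 84.2% with log2(TPM + 1). Relative to the first fit, those settings shifted the median log2 fold change of all genes by -0.13 and 0.22. Epithelial markers were at a summed 17.4 to 20.5 CPM (read counts scaled to the TMM-adjusted library total) in saline and 35.2 to 37.3 CPM in vanoxerine. There was no reference level of a carcinoma to set these sums against.

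Among the 10 members, 4 rose in vanoxerine tumours (Cxcl1, Cxcl9, Cxcl14 and Cxcl16), 4 fell (Cxcl2, Cxcl10, Cxcl11 and Cxcl12) and 2 were not called (Cxcl3 and Cxcl5), against 21.0% higher and 15.9% lower over all genes tested. The median log2 fold change of the members was 0.06, beside -0.01 over all genes tested, with the largest rise at 2.15 for Cxcl16 and the largest fall at -1.05 for Cxcl11. The groups did not overlap for 9 members, all but Cxcl5, beside 70.7% of all genes tested. No functional class moved as a block: the Cxcr2 ligands held 1 rise and 1 fall, the Cxcr3 ligands 1 rise and 2 falls, and the remaining members 2 rises and 1 fall. The summed level of the members was 1785 and 1701 CPM in saline and 1473 and 1458 CPM in vanoxerine, so it was lower in both vanoxerine libraries.

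**Figure D1:**
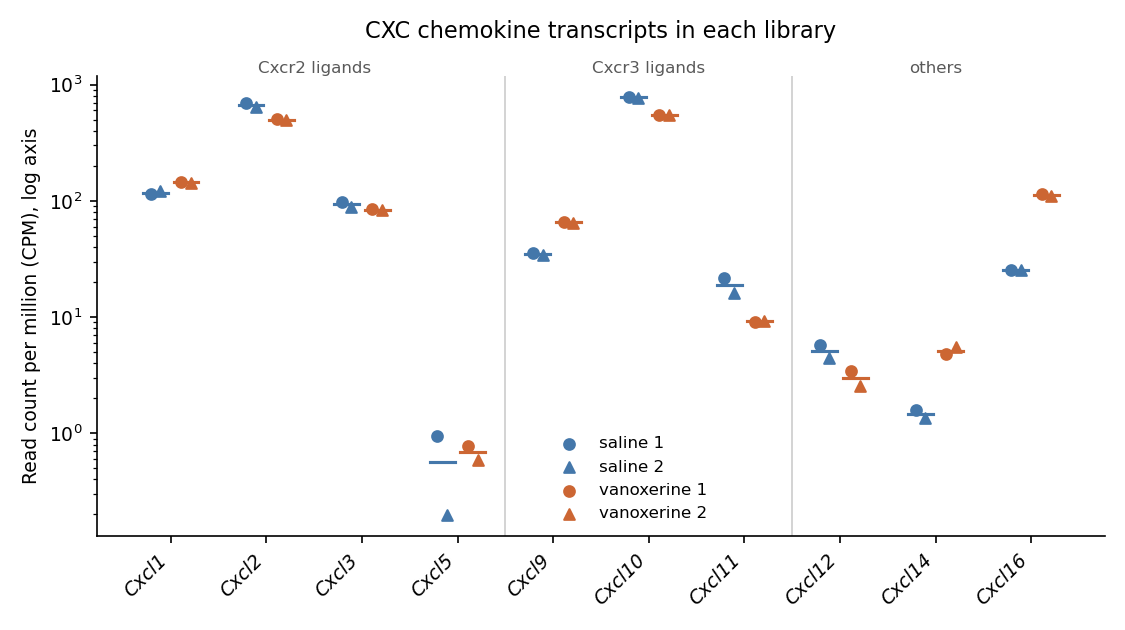
CPM of each CXC chemokine gene on a log axis, with 1 point per library (blue for saline, orange for vanoxerine; circle for replicate 1, triangle for replicate 2) and a short line at each group mean. Cxcl10 and Cxcl2 lie at the top in all 4 libraries, Cxcl16 moves from about 25.2 to 112 CPM, and Cxcl5 is the gene whose groups overlap.

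In TPM, which is scaled to transcript length and so allows genes to be compared within a library, Cxcl10 and Cxcl2 dominated the family. Of the summed TPM of the 10 genes, Cxcl10 held 47.2% and 49.7% in the saline libraries against 42.8% and 43.2% with vanoxerine. The shares of Cxcl2 were 38.2% and 36.0% against 33.9% and 33.3%. Short retained-intron models enter both: Cxcl10-203 (344 bases) made 15.7% to 25.9% of the Cxcl10 TPM from 2.08% to 3.93% of its reads. Cxcl2-204 (397 bases) made 5.77% to 9.66% of the Cxcl2 TPM from 1.14% to 2.01% of its reads. Cxcl1 (6.66% to 10.4%) and Cxcl3 (5.21% to 6.11%) followed, so the first 4 ranks were the same in every library. Behind them, saline TPM levels of Cxcl9 (10.9 and 16.7), Cxcl16 (12.8 and 11.8) and Cxcl11 (13 and 10.2) overlapped and had no order beyond their spread. In vanoxerine Cxcl16 at 63.3 and 59.9 TPM and Cxcl9 at 48.8 and 58.1 did not differ beyond the spread of Cxcl9, and both were above Cxcl11 at 6.36 and 6.48. These Cxcl9 levels include a short transcript, described below. The long transcript Cxcl9-201 alone was at 10.9 and 10.2 TPM in saline and 23.2 and 21.7 in vanoxerine. That is below the summed Cxcl16 TPM in both groups and still above Cxcl11 in vanoxerine. Cxcl16 was not restricted in this way. Its coding transcript Cxcl16-201 alone was at 4.21 and 4.59 TPM in saline and at 26.4 and 25.6 in vanoxerine. Cxcl9-201 was above Cxcl16-201 in saline and below it in vanoxerine, so the saline order depended on the transcripts counted. Cxcl12, Cxcl14 and Cxcl5 stood last in both groups, with TPM levels of at most 3.10, and in vanoxerine Cxcl12 (0.775 and 0.674) and Cxcl5 (0.722 and 0.576) overlapped.

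Of the neutrophil attractants, Cxcl1 rose and Cxcl2 fell although the genes are neighbours (chromosome 5, 90891241 to 90893115 and 90903871 to 90905938, both forward strand) and carry the same kB site. Cxcl1 (ENSMUSG00000029380) was at 114 and 121 CPM in the saline libraries and at 144 and 144 CPM in the vanoxerine libraries. The means were 118 ± 5.0 and 144 ± 0.597 CPM (± SD, n = 2), with a log2 fold change of 0.29 ± 0.05 (SE; edgeR adjusted p = 0.00688). Both vanoxerine libraries lay above both saline libraries. Cxcl2 (ENSMUSG00000058427) was at 696 and 646 CPM in saline and at 502 and 492 CPM in vanoxerine. Its mean fell from 671 ± 35.1 CPM to 497 ± 6.70, with a log2 fold change of -0.43 ± 0.05 (edgeR adjusted p = 0.00128), and again the groups did not overlap. The TPM ratio of Cxcl2 to Cxcl1 went from 5.74 and 5.20 in saline to 3.26 and 3.19 in vanoxerine, a ratio within each library that no scaling between libraries can alter.

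Both calls had limits. The rise of Cxcl1 lost its call without vanoxerine replicate 1 (0.30, adjusted p = 0.0897), without vanoxerine replicate 2 (0.31, adjusted p = 0.0820) and with upper-quartile scaling (0.16, adjusted p = 0.0695), and it was 0.58 with log2(TPM + 1). The fall of Cxcl2 was -0.18 with log2(TPM + 1) (limma adjusted p = 0.0547) and with log2(TPM + 0.1) (adjusted p = 0.0521), so neither setting called it.

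Cxcl3 (ENSMUSG00000029379; chromosome 5, 90786103 to 90789600, forward strand), the third gene with the kB site, was at 97.6 and 88.8 CPM in saline and at 85.3 and 83.0 CPM in vanoxerine. The groups did not overlap, but the gap between them was smaller than the distance between the saline libraries. Its log2 fold change was -0.15, with a 95% interval of -0.30 to 0.0031 (edgeR adjusted p = 0.115), and it was not called. Without saline replicate 2 the value was -0.20 (adjusted p = 0.000516), with upper-quartile scaling -0.28 (adjusted p = 0.0116), and with log2(TPM + 1) the sign turned, to 0.11 (adjusted p = 0.263).

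Cxcl5 (ENSMUSG00000029371; chromosome 5, 90759360 to 90761624, forward strand) was near the lower end of detection, with 72 and 14 reads in saline and 54 and 39 reads in vanoxerine. These reads correspond to 0.942 and 0.197 CPM in saline and to 0.780 and 0.592 CPM in vanoxerine, so that the saline libraries enclosed both vanoxerine libraries. The interval of its log2 fold change ran from -1.61 to 2.14 (edgeR adjusted p = 0.822), too wide to show a change or its absence. It was 1.79 and called higher without saline replicate 1 (adjusted p = 0.0320), and -0.44 without saline replicate 2.

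Neutrophil markers were lower in the same libraries: 7 of 9 tested fell, the list summed to 853 and 891 CPM in saline against 481 and 472 CPM with vanoxerine, and none of the 10 markers was at 0 in every library. Without vanoxerine replicate 1 the count was 4 of 10 and without replicate 2 it was 3. S100a9 and S100a8, calcium-binding proteins abundant in neutrophils, had log2 fold changes of -1.13 and -0.90. Cxcr2, the receptor of Cxcl1, Cxcl2 and Cxcl3, was at 33.2 and 35.2 CPM in saline and at 30.3 and 31.2 CPM in vanoxerine; it was not called (edgeR adjusted p = 0.139). Cxcr1, its close relative, was at 1.39 and 2.37 CPM in saline and at 0.534 and 0.911 CPM in vanoxerine (adjusted p = 0.0564). The part of these cells in the levels of Cxcl1 and Cxcl2 was not tested, and in bulk tumour RNA fewer cells of a type and less RNA per cell cannot be told apart.

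The interferon-inducible ligands also divided, with Cxcl9 higher and its neighbours Cxcl10 and Cxcl11 lower. Cxcl9 (ENSMUSG00000029417; chromosome 5, 92321347 to 92328079, reverse strand) was at 35.3 and 34.1 CPM in saline and at 66.4 and 64.0 CPM in vanoxerine. Its mean of 34.7 ± 0.849 CPM became 65.2 ± 1.67, a 1.88-fold rise (log2 fold change 0.91 ± 0.06, edgeR adjusted p = 0.000150). Every vanoxerine library was clearly above every saline library, and Cxcl9 kept its call in all 16 alternatives.

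Cxcl10 (ENSMUSG00000034855; 92346638 to 92348889, reverse strand), the most abundant member, was at 787 and 763 CPM in saline and at 544 and 547 CPM in vanoxerine. It was 1.42-fold lower in vanoxerine, with means of 775 ± 16.9 and 545 ± 2.66 CPM and a log2 fold change of -0.51 ± 0.04 (edgeR adjusted p = 0.000281). The gap between the groups was many times the distance between libraries of a group. With log2(TPM + 1) its value was -0.20 (limma adjusted p = 0.0566) and with log2(TPM + 0.1) also -0.20 (adjusted p = 0.0526), so neither setting called it.

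Cxcl11 (ENSMUSG00000060183; 92359544 to 92365485, reverse strand) had 1659 and 1157 reads in saline and 628 and 612 reads in vanoxerine, or 21.7 and 16.2 CPM against 9.07 and 9.29 CPM. Vanoxerine libraries were close to each other and below both saline libraries, which differed among themselves. The gene was 2.07-fold lower (log2 fold change -1.05 ± 0.15, edgeR adjusted p = 0.00357), and the fall kept its call in the 15 alternatives that tested it. The annotation lists Cxcl11 as a polymorphic pseudogene of the reference strain, C57BL/6J, so its transcript level says nothing of a functional protein there. The gene was left out of the fit on protein-coding genes for the same reason. Among its transcripts, Cxcl11-201, with 87.8% to 96.6% of the reads, is labelled protein coding, and Cxcl11-202 carries the pseudogene label.

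Within the class, the TPM ratio of Cxcl10 to Cxcl9 was 79.8 and 55.5 in saline against 15.9 and 13.5 with vanoxerine. That of Cxcl9 to Cxcl11 was 0.836 and 1.64 against 7.68 and 8.96. With Cxcl9 taken from its long transcript Cxcl9-201 alone, a choice made after seeing the data, the first ratio was 79.8 and 91.0 against 33.3 and 36.1, and the second 0.836 and 1.00 against 3.65 and 3.35. Cxcl10 was not restricted in this way and kept its short model Cxcl10-203 (15.7% to 25.9% of its TPM). Both ratios were apart between the groups in either form, but the summed TPM gave the wider gap. No test was run on them, and with 2 libraries against 2 a two-sided exact permutation p cannot go below 0.333.

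**Figure D2:**
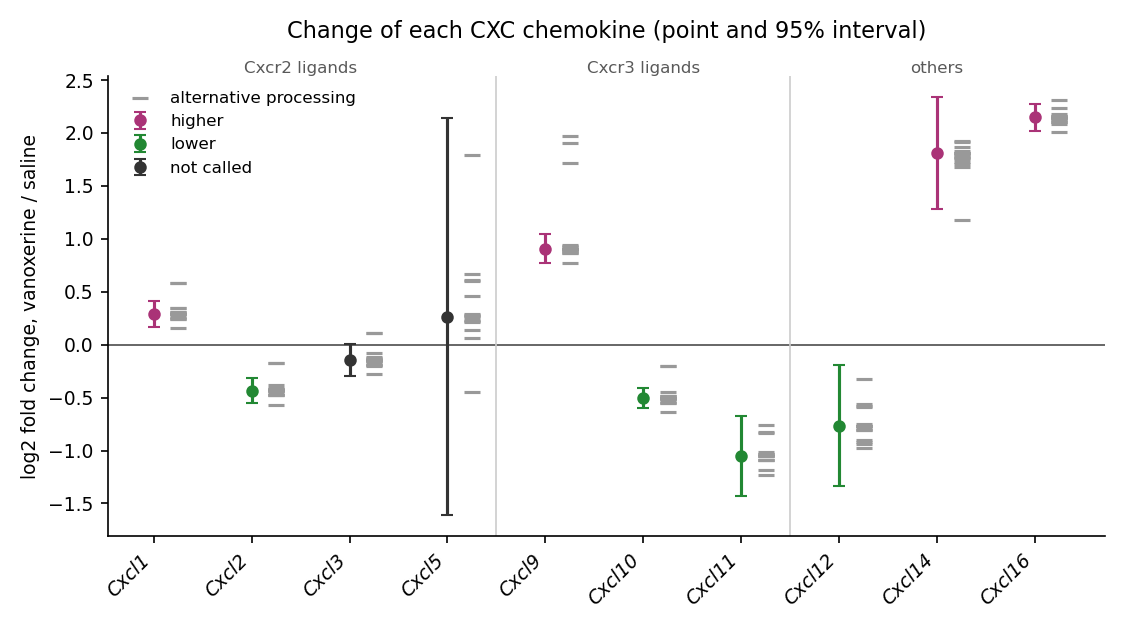
log2 fold change of each CXC chemokine, vanoxerine over saline (vertical axis), as a point with its 95% interval from edgeR, coloured by call; grey dashes to the right of each point are the values under other processing. Cxcl16 and Cxcl14 lie highest and Cxcl11 lowest, the interval of Cxcl5 runs from -1.61 to 2.14, and 3 dashes of Cxcl9 lie well above its point.

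The size of the Cxcl9 rise depended on how a short transcript was weighed. Salmon placed nearly all reads on Cxcl9-201 (2889 bases), whose TPM was 10.9 and 10.2 in saline against 23.2 and 21.7 with vanoxerine. Cxcl9-202, a retained-intron model of 370 bases, received 0 and 72.9 reads in saline and 229 and 313 reads in vanoxerine, at most 7.42% of the gene's reads. Because TPM divides by length, those few reads made 0% and 39.0% of the gene's TPM in saline and 52.4% and 62.6% in vanoxerine. The log2 fold change of Cxcl9 was 1.90 with log2(TPM + 1), 1.97 with log2(TPM + 0.1) and 1.71 with an average transcript length offset, each still called. It is 1.67 in the authors' deposited table, and the sources used here do not say how transcripts were summed there.

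**Figure D3:**
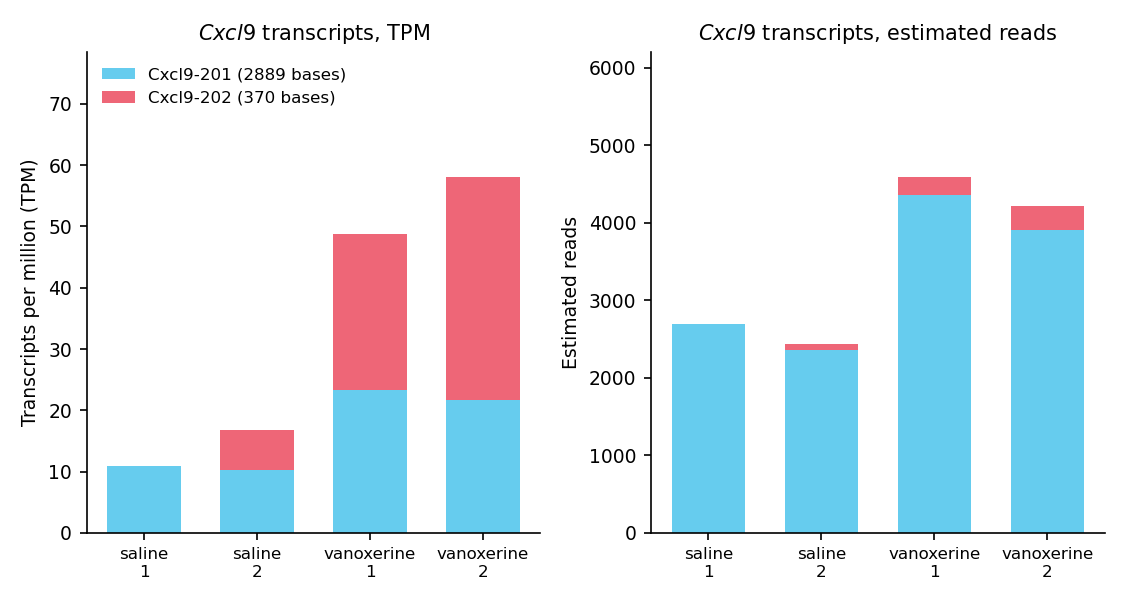
Stacked bars of the Cxcl9 transcripts in each library, as TPM (left) and as estimated reads (right); blue is Cxcl9-201 (2889 bases) and red is Cxcl9-202 (370 bases). The short transcript makes at most 7.42% of the reads but 52.4% and 62.6% of the TPM in the vanoxerine libraries, and the long one alone is higher in both vanoxerine libraries.

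Genes of interferon gamma signalling, a list that was chosen with earlier results known, did not follow Cxcl10 and Cxcl11: 10 of 13 rose, 2 fell and 1 was not called, with a median log2 fold change of 0.58 (all genes tested, -0.01). The smallest p-values were those of Irf8, a transcription factor of myeloid cells (log2 fold change 0.91 ± 0.04), the GTPase gene Gbp2 (0.85 ± 0.04), the PD-L1 gene Cd274 (0.91 ± 0.04) and the receptor chain gene Ifngr1 (0.83 ± 0.04). The 2 genes lower with vanoxerine were Ifng itself and Ido1, which encodes a tryptophan-degrading enzyme (both chosen with their values in view). Ifng was at 28.9 and 31.4 CPM in saline and at 12.6 and 11.6 CPM in vanoxerine, a log2 fold change of -1.31 ± 0.09 (edgeR adjusted p = 0.000203). Ido1 was at 12.5 and 11.1 CPM in saline and at 8.71 and 8.70 CPM in vanoxerine (-0.44 ± 0.12, adjusted p = 0.0284). The count of lower genes in this list was 1 instead of 2 without either vanoxerine library, with the length offset and with both log2 TPM settings.

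Genes that drive or restrain NF-kB rose in 10 of 13 tested and 3 were not called, beside 21.0% higher and 15.9% lower over all genes tested. Their median log2 fold change was 0.36 (all genes tested, -0.01), while Cxcl1, Cxcl2 and Cxcl3, with their kB site, had values of 0.29, -0.43 and -0.15. With upper-quartile scaling 8 of these NF-kB genes rose and 1 fell, with a median of 0.23. The list, also chosen with earlier results known, was led by Zc3h12a, an RNase that degrades inflammatory transcripts (0.99 ± 0.06), the atypical inhibitor gene Nfkbiz (0.69 ± 0.05), the cytokine gene Tnf (0.87 ± 0.06) and the ubiquitin-editing inhibitor gene Tnfaip3 (0.54 ± 0.04). Tnf went from 41.1 and 44.2 CPM in saline to 79.5 and 76.4 CPM in vanoxerine, with no overlap. Without vanoxerine replicate 1 or 2, 7 or 8 of the 13 genes were called higher.

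Of the remaining members, Cxcl16 had the largest change of the family. It was at 25.2 and 25.3 CPM in saline and at 114 and 109.8 CPM in vanoxerine, so that the saline libraries were almost identical and both vanoxerine libraries lay far above them. The gene (ENSMUSG00000018920; chromosome 11, 70453983 to 70459984, reverse strand) rose 4.43-fold, with means of 25.2 ± 0.0697 and 112 ± 2.76 CPM and a log2 fold change of 2.15 ± 0.05 (edgeR adjusted p = 8.14e-06). Its values over 16 alternatives ran from 2.01 to 2.31, all called. The protein-coding Cxcl16-201 took 52.6% and 58.6% of the gene's reads in saline and 62.0% and 63.1% in vanoxerine, and Cxcl16-202, a model marked for nonsense-mediated decay, most of the rest.

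Cxcl14 (ENSMUSG00000021508; chromosome 13, 56288643 to 56296551, reverse strand) was a gene of low level that rose 3.51-fold. It had 120 and 97 reads in saline and 330 and 364 reads in vanoxerine, which is 1.57 and 1.36 CPM against 4.77 and 5.53 CPM. The groups were well apart, with a log2 fold change of 1.81 ± 0.22 (edgeR adjusted p = 0.00163) that was called in all 16 alternatives and was 1.18 with log2(TPM + 1), where the added 1 is large beside TPM levels of 0.639 to 3.10.

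Cxcl12 (ENSMUSG00000061353; chromosome 6, 117168540 to 117181370, forward strand) had 435 and 318 reads in saline and 236 and 169 reads in vanoxerine. In CPM it was at 5.69 and 4.46 in saline and at 3.41 and 2.57 in vanoxerine, without overlap but with wide distances within each group. The log2 fold change was -0.77 ± 0.23 (95% interval -1.34 to -0.19), 1.70-fold lower, and it passed narrowly (edgeR adjusted p = 0.0474). The call was lost in 7 of 16 alternatives, among them without saline replicate 1 (-0.58, adjusted p = 0.0519), without vanoxerine replicate 1 (-0.97, adjusted p = 0.0894), without vanoxerine replicate 2 (-0.56, adjusted p = 0.285) and with the length offset (-0.94, adjusted p = 0.107). Its reads were also divided unevenly among isoforms, since Cxcl12-203 took 36.1% of them in saline replicate 1 and 30.8% in vanoxerine replicate 2 but 0% in the other libraries.

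Cell markers moved beside these genes. Macrophage markers rose in 10 of 10, with a summed level of 628 and 659 CPM in saline and 3686 and 3712 CPM in vanoxerine, and the complement genes C1qc and C1qa had log2 fold changes of 3.12 and 3.16. Of 8 dendritic cell markers 7 rose, 4 of them without vanoxerine replicate 2 (47.9 and 55.0 CPM in saline, 113 and 115 CPM in vanoxerine), among them Itgax at 1.13 and Ccr7 at 1.49. Fibroblast markers fell in 7 of 8 (516 and 510 CPM in saline, 265 and 264 CPM in vanoxerine), with Col3a1 at -1.09 and Dcn at -0.93, and endothelial markers fell in 6 of 8 (101.5 and 97.7 CPM in saline, 47.3 and 49.7 CPM in vanoxerine), with Plvap at -2.02 and Cdh5 at -1.05. No marker of these lists was at 0 in every library. The part of these cells in the changes of Cxcl9, Cxcl12, Cxcl14 and Cxcl16 was not tested.

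Of 8 receptors of the CXC chemokines tested, Cxcr3 and Cxcr5 rose, and Cxcr6 and the scavenging receptor gene Ackr3 fell. Cxcr1, Cxcr2, Cxcr4 and Ackr1 were not called. These counts are 25% higher and 25% lower, not far from the 21.0% and 15.9% over all genes tested. Cxcr3, the receptor of Cxcl9, Cxcl10 and Cxcl11, was at 1.69 and 1.57 CPM in saline and at 3.60 and 3.83 CPM in vanoxerine (log2 fold change 1.19 ± 0.22, edgeR adjusted p = 0.00879). Cxcr6, the receptor of Cxcl16, went the other way, from 64.9 and 58.4 CPM to 49.0 and 51.1 CPM (-0.30 ± 0.07, adjusted p = 0.0187). Thus in CPM the largest rise among the ligands stood beside a lower level of its receptor. In TPM the Cxcr6 groups overlapped (31.7 and 28.4 in saline, 28.6 and 29.6 in vanoxerine). Cxcr6 was not called lower with the length offset or with either log2 TPM setting.

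Ackr3, which binds Cxcl12 and Cxcl11, fell with them, from 5.42 and 6.19 CPM in saline to 3.38 and 3.54 CPM in vanoxerine (-0.75 ± 0.17, adjusted p = 0.0185). Cxcr4, the signalling receptor of Cxcl12, was at 125 and 133 CPM in saline and at 134 and 136 CPM in vanoxerine (adjusted p = 0.361). Cxcr5, a receptor of B cells and helper T cells, rose from 0.759 and 0.561 CPM to 1.31 and 2.02 CPM (adjusted p = 0.0440). Without vanoxerine replicate 1 or replicate 2 edgeR called 0 of the 8 receptors, with 3 or 4 of them at an unadjusted p under 0.05, and DESeq2 on all libraries called 2 higher and 3 lower. Upper-quartile scaling gave 1 higher and 4 lower, leaving out saline replicate 1 gave 2 and 4, and leaving out saline replicate 2 gave 3 and 2. The log2 TPM settings gave 2 and 0 of 7 tested, with the median turned from -0.23 to 0.11 and 0.12. The length offset gave 1 and 0 of 8. In the authors' deposited table Cxcr5 (0.11, adjusted p = 0.719) and Ackr3 (-0.46, adjusted p = 0.101) do not pass 0.05. There Cxcr1 (-0.89, adjusted p = 0.0467) and Cxcr4 (0.20, adjusted p = 0.0478) pass it, as do Cxcr3 and Cxcr6 in their edgeR directions. In TPM the Cxcr5 groups overlapped (0.250 and 0.555 in saline, 0.506 and 0.709 in vanoxerine).

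T cells and NK cells carry Cxcr3 and Cxcr6, and their markers were read beside these receptors. Of 8 T cell markers 1 was higher and 3 were lower, but 0 and 1 without either vanoxerine library (unadjusted p under 0.05 for 4 and 3 of them) and 1 and 1 with the log2 TPM settings, where the list's median turned from -0.17 to 0.11. The list summed to 520.2 and 533 CPM in saline against 464 and 445 CPM with vanoxerine. Cd8b1 and Cd8a had log2 fold changes of -0.60 and -0.32, and Cd3g also fell (-0.31). The higher marker was Cd4, at 0.96 (edgeR adjusted p = 0.0136), and Cd3d, Cd3e, Trac and Lck were not called. Cd4 and the Cd3g, Cd3d, Cd3e, Trac and Lck genes were named with their values in view. NK cell markers rose in 4 of 6 (187 and 163 CPM in saline, 263 and 253 CPM in vanoxerine), with Klra8 at 0.77 and Eomes at 0.62. Their part in the receptor levels was not tested.

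Proteases that cut or shed CXC chemokines rose in 3 of 6 and fell in 1, beside 21.0% higher and 15.9% lower over all genes tested. Adam10 and Adam17, the sheddases of Cxcl16, had log2 fold changes of 0.82 ± 0.09 and 0.61 ± 0.06, with Adam10 at 61.3 and 50.5 CPM in saline and at 98.4 and 99.4 CPM in vanoxerine. The gelatinase genes were opposed, with Mmp9 at 22.1 and 27.5 CPM in saline and 66.9 and 73.2 CPM in vanoxerine and Mmp2, a gene of stromal cells, at 22.1 and 22.1 CPM in saline and 7.74 and 7.97 CPM in vanoxerine. Mmp9 was 2.82-fold higher (edgeR adjusted p = 0.000282) and Mmp2 2.82-fold lower (adjusted p = 0.000130). The other 2 genes of the list, Mmp8 and Dpp4, were not called. For Dpp4, named with its values in view, the edgeR log2 fold change was 0.19 (adjusted p = 0.378). The authors' deposited table gives it -0.71 (adjusted p = 0.00256). Its TPM was 9.28 and 7.11 in saline against 4.78 and 6.27 in vanoxerine, so its direction depended on the processing.

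Among CXC chemokines outside the 10 members, Pf4 rose and Ppbp was not called, and both are known as platelet chemokines. Pf4 was at 33.7 and 33.0 CPM in saline and at 112 and 108 CPM in vanoxerine, a 3.29-fold rise (1.72 ± 0.05, edgeR adjusted p = 1.42e-05). Ppbp was at 4.82 and 4.04 CPM in saline and at 7.21 and 5.98 CPM in vanoxerine (adjusted p = 0.0537). The count of these genes called higher was 2 instead of 1 in 6 alternatives: DESeq2, limma-voom, both log2 TPM settings, protein-coding genes only and without saline replicate 1. Of 5 platelet markers tested, edgeR called 0, with 0 at an unadjusted p under 0.05 and 0 called by DESeq2 (1 was called without saline replicate 2), and their summed level was 6.81 and 8.15 CPM in saline and 7.05 and 7.73 CPM in vanoxerine. Macrophages also express Pf4, and their markers rose as given above; the part of either cell type was not tested. Cxcl13, Cxcl15 and Cxcl17 had at most 24 reads in any library.

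**Figure D4:**
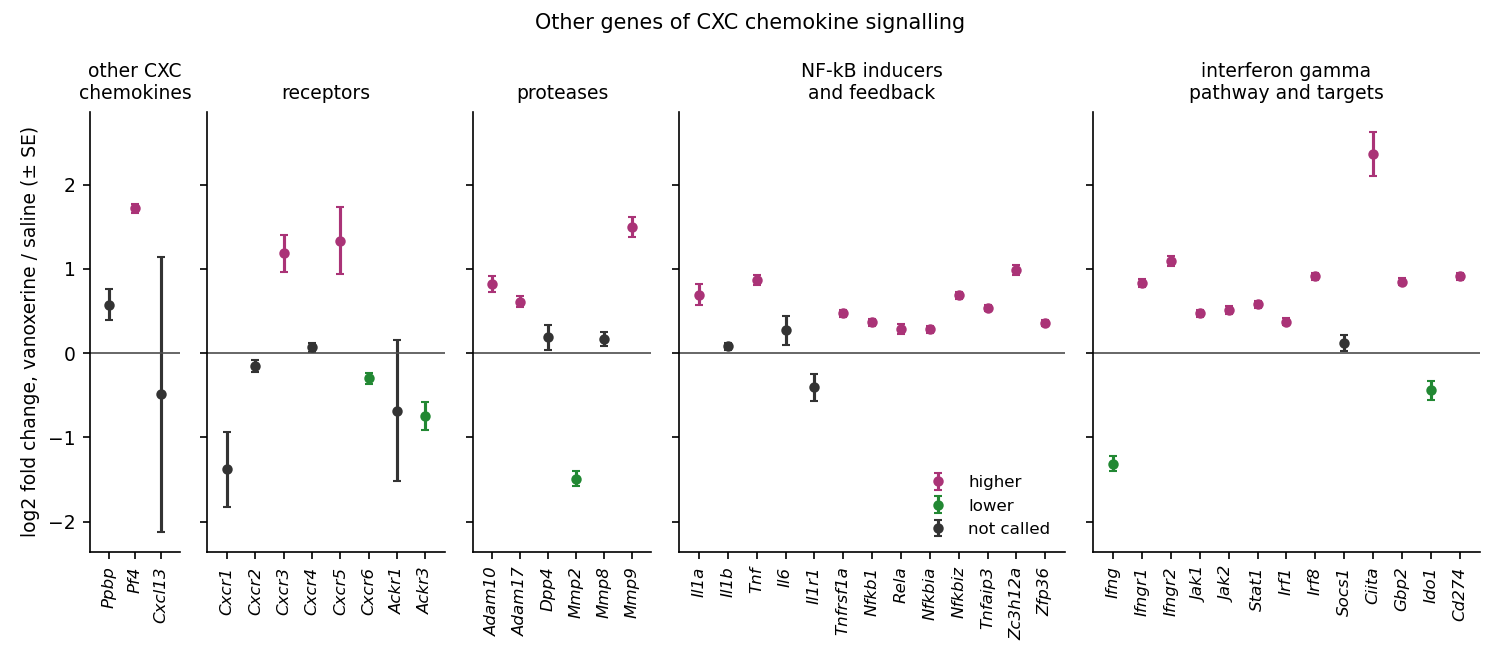
log2 fold change (vertical axis, ± SE from edgeR, vanoxerine over saline) of the genes tested in 5 lists: other CXC chemokines, receptors, proteases, NF-kB genes and interferon gamma genes, coloured by call. In the last panel 10 of 13 genes are higher while Ifng and Ido1 are lower, and the receptor panel holds 2 rises and 2 falls.

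The genes closest to the extreme members were found by the Euclidean distance of their centred log2 CPM over the 4 libraries, among 11685 named genes whose mean log2 CPM was 1 or more. For Cxcl16 they were the chemokine gene Ccl9 (distance 0.048, log2 fold change 2.15), the phagosomal metal transporter gene Slc11a1 (0.050, 2.11) and Enpp4 (0.087, 2.23). For Cxcl11 they were Atpaf2 (distance 0.067, log2 fold change -1.06), Phtf1os (0.074, -1.10) and Pyroxd2 (0.11, -0.96). With 4 libraries in 2 groups such a distance mostly restates the group difference.

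Transcript shares of some members were apart between the groups and those of others were not. The coding transcript Cxcl2-201 held 86.5% and 87.3% of the gene's reads in saline and 81.8% and 81.5% in vanoxerine. The second coding transcript, Cxcl2-202, held 2.26% and 1.94% against 4.79% and 4.04%, and the retained-intron model Cxcl2-203 held 10.1% and 9.22% against 11.6% and 12.4%. The polymorphic pseudogene model Cxcl11-202 held 6.82% and 3.36% of the reads of Cxcl11 in saline against 11.9% and 12.2% with vanoxerine. The retained-intron model Cxcl10-204 held 5.07% and 5.01% against 4.23% and 4.15%. None of these shares overlapped between the groups, but these transcripts were named with their values in view. With 2 libraries against 2, a two-sided exact permutation p cannot go below 0.333. The coding transcript Cxcl10-201 held 92.9% and 91.1% in saline against 92.3% and 92.3% with vanoxerine, and there the groups overlapped. They also overlapped for Cxcl10-203 (2.08% and 3.93% against 3.43% and 3.58%) and for Cxcl3-201 (94.7% and 91.8% against 92.8% and 94.9%). Neither kind is listed in full here. Such shares are Salmon's estimates, given without a test.

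Sequence shared with other genes limits some of these values. Cxcl2 and Cxcl3 share 161 of their 31-base words, which is 7.59% of those of Cxcl2, whereas Cxcl1 shares no such word with any other gene. Of the words of Cxcl16, 18.5% also lie in Zmynd15, which overlaps it on the opposite strand and had 269 and 216 reads in saline and 687 and 665 in vanoxerine, against 1924 and 1801 and then 7868 and 7230 for Cxcl16. For Cxcl11, 42.2% of the words are shared, most of them with the overlapping pseudogene Gm2673, which received 0 reads in every library. Art3 overlaps Cxcl10 and Cxcl11 on the opposite strand and had at most 103 reads. The sources used here do not say whether strand was used in counting, so reads of such pairs may not be told apart.

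As log2 fold changes the authors' deposited table gives 2.08 for Cxcl16, 1.64 for Cxcl14, 0.34 for Cxcl1, -0.40 for Cxcl2, -0.43 for Cxcl10 and -1.03 for Cxcl11, with adjusted p-values from 2.71e-93 (Cxcl16) to 0.000342 (Cxcl1). In the authors' deposited table Cxcl12 is at -0.68 (adjusted p = 0.0523), Cxcl3 at -0.12 (adjusted p = 0.322) and Cxcl5 at 0.05 (adjusted p = 0.858), and these 3 do not pass 0.05. The per-library columns of that table carry names that match none of these samples, so which libraries its values rest on is not settled. Cxcl12 is thus the member whose call differs between that table and the edgeR fit.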

How the data were processed

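Total RNA of snap-frozen MC38 tumours was sequenced on a NextSeq 500 from TruSeq RNA v2 libraries, per the labels' protocols. Per the submitters' processing notes, fastp, Salmon 1.3.0 and DESeq2 were used with build GRCm38; their settings and the annotation release are not named in these sources. The deposited Salmon files hold an estimated count and a TPM for each of 140992 transcripts. The authors' deposited table holds a base mean (a normalized signal), log2 fold changes and p-values; its 4 columns of per-library FPKM match none of the samples by name and were not used.

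Counts were summed to 54115 genes of GENCODE M21 (139791 transcripts matched), rounded, and tested with edgeR 4.0.16 (R 4.3.3): TMM factors, low-count filter (minimum count 10, minimum total 15), quasi-likelihood test of vanoxerine against saline, Benjamini-Hochberg adjustment over 18758 genes, threshold 0.05. The SE is the log2 fold change over the square root of F. Alternatives (16) were other scalings and filters, DESeq2 1.42.0, limma 3.58.1 on counts (voom) or log2 TPM with a pseudocount of 1 or 0.1, a transcript length offset, protein-coding genes, the replicate block and leaving out each library. The edgeR fit was tested on simulated data. Intervals cover the spread between these libraries only.

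Members and gene lists were chosen with earlier results of these data known. Named are all members, all receptors and other CXC chemokines with reads. By smallest p, up to 4 genes of each other pathway list and 2 of each marker list described are named. The remaining T cell markers and some pathway genes were named in addition. B cell and red cell marker lists were also computed: 1 of 5 B cell markers rose and 1 fell, and 6 of 6 red cell markers fell. Promoters are RefSeq's (GRCm38.p6), trimmed where GENCODE M21 starts the gene further upstream.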

Additional observations from a re-analysis of the deposited data

How the results depend on the processing

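Across 158 refits of single members, 155 kept the sign of the reported value, and Cxcl9, Cxcl11, Cxcl14 and Cxcl16 kept sign and call in every alternative that tested them. The sign turned for Cxcl3 with log2(TPM + 1) (0.11) and log2(TPM + 0.1) (0.11), and for Cxcl5 when 1 library was left out (-0.44 to 1.79); the cause was not tested for Cxcl3, and Cxcl5 rests on 14 to 72 reads. Members called lower numbered 4, but 1 with log2(TPM + 1) and 1 with log2(TPM + 0.1), and 3 to 5 without 1 library; members called higher numbered 4, and 3 to 5 without 1 library. All genes called numbered 6916, 4305 with the transcript length offset and 3107 (without vanoxerine replicate 2) to 9708 (without saline replicate 1) when 1 library was left out, where a group's lone library takes its spread from the other group. The labels number the libraries 1 and 2 in each group, but same-numbered libraries did not deviate together (correlation of deviations -0.013 over 9871 genes), and nothing in the labels pairs them. With the replicate number as a block 6391 genes were called, with 4 members higher and 4 lower, and among the 8 receptors 1 rose and 3 fell. Depth limits Cxcl5, Cxcl12 and Cxcl14, whose counts in a library were at most 435 reads.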
